A study of Mus musculus with 45 samples.

Results

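The EGF family comprises small growth factors that bind the ErbB receptor tyrosine kinases, and 10 of its genes were described in mouse kidney tubules: the 6 ligands Egf, Hbegf, Tgfa, Areg, Ereg and Btc, and the 4 receptors Egfr, Erbb2, Erbb3 and Erbb4. The members were taken by symbol from the 55401 genes of the count tables. All 10 were among the 15991 genes tested in males. In females 9 were among the 15968 genes tested, since Areg had 6 counts in only 3 of 21 females and did not pass the filter. The neuregulins and epigen, which also bind these receptors, were kept as a separate list.

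Ligands of this family are made as membrane-anchored precursors and are shed by proteases. Ligand binding pairs the receptors and starts signalling through the Ras and MAP kinase cascade and through PI3 kinase. Erbb2 binds no known ligand by itself and Erbb3 has a weak kinase, so both act mainly in pairs with other receptors. In the kidney, Egf is made mostly in the thick ascending limb and the distal convoluted tubule, where it is also known for its part in magnesium reabsorption. Hbegf, Tgfa, Areg, Ereg and Btc are made at lower levels, and several of them are known for rising after tubule injury. In polycystic kidney disease this pathway has long been studied for its effect on the growth of cyst epithelium.

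The data are translating ribosome affinity purification (TRAP) RNASeq libraries of 45 mice, 1 library per mouse, whose kidneys were taken at P49 (7 weeks). TRAP pulls down ribosomes that carry an EGFP-tagged Rpl10a protein. All groups carried RosaEGFP-Rpl10a, Pax8rtTA and TetOCre, so that doxycycline given from P28 to P42 started Cre, and with it the tag, in tubule cells, where Pax8 drives rtTA. Noncystic mice carried these with Pkd1fl/+ and thus also lost 1 Pkd1 allele in the cells sampled (8 males and 7 females). Pkd1KO mice were Pkd1fl/fl (7 males and 8 females). Pkd1KO+ciliaKO mice were Pkd1fl/fl; Kif3afl/fl, which removes primary cilia as well (9 males and 6 females). By the study's design the kidneys were taken before cysts form, and the comparisons ask which genes differ in cells that will form cysts, against both genotypes that do not.

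Between 80874556 and 132958186 fragments were counted per mouse (median 103070359), and a floor of 3 counts corresponded to 0.0226 to 0.0371 CPM (counts scaled to a common library size). Marker sums describe the material. They cannot check the tubule label, since no library of unselected kidney is among the 45 to set them against. Proximal tubule markers summed to at least 4211 CPM in every mouse, whereas the 5 podocyte markers, which belong to cells outside the tubule, summed to at most 183 CPM. Other markers from outside the tubule reached 907 CPM for fibroblasts and pericytes, 397 CPM for macrophages and 330 CPM for endothelial cells. Intercalated cell markers, of the tubule, summed to 173 to 470 CPM. RNA from outside the tubule was thus not absent. Kif3a lay at 13.9 to 29.6 CPM in 29 of 30 noncystic and Pkd1KO libraries and at 4.83 to 8.35 CPM in 14 of 15 Pkd1KO+ciliaKO libraries. In 2 female libraries it went against the label: the library labelled noncystic replicate 5 had 6.72 CPM and the library labelled Pkd1KO+ciliaKO replicate 6 had 20.5 CPM. The first value lay in the range of the other Pkd1KO+ciliaKO libraries and the second in that of the other noncystic and Pkd1KO libraries. Pkd1 gave no such check at the level of whole genes. By edgeR it differed by -0.45 ± 0.15 (SE, adjusted p = 0.0991) in Pkd1KO against noncystic males. In females the difference was -0.22 ± 0.13 (SE, adjusted p = 0.418), with groups that overlapped in both sexes. Only exons near its start are floxed, and the part of this in the values was not tested. On the first principal component, 4 of 24 male libraries (noncystic 3, Pkd1KO 4, Pkd1KO+ciliaKO 6 and 8) stood apart, at -30.2 to -1.13 against 14.4 to 40.3 in the other 20 males and -38.4 to -12.9 in the 21 females. All libraries were kept as labelled, and calls that change without these 6 are given both ways. A fit of 1 pair of genotypes could leave out only those of the 6 that belonged to its groups.

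Per transcript length, Egf was the most abundant member. Its level over the 45 mice was 74.4 to 494 TPM (the authors' values, which divide by transcript length and depth), with a median of 242 TPM. The median of Erbb3 was 65.3 TPM, that of Erbb2 49.3 TPM, that of Egfr 22.4 TPM and that of Erbb4 12.7 TPM. This order held within nearly every mouse: Egf exceeded Erbb3 in 44 of 45 mice, Erbb3 exceeded Erbb2 in 44 of 45, and Erbb2 exceeded Egfr and Egfr exceeded Erbb4 in all 45. Hbegf (7.13 TPM), Tgfa (6.38 TPM) and Btc (6.22 TPM) formed a lower tier whose order was not stable, with Hbegf above Tgfa in 29 of 45 mice and Tgfa above Btc in 25 of 45. Areg, listed for males only, reached 1.08 TPM and Ereg 0.111 TPM, both with medians under 0.1 TPM. Of the summed TPM of the 6 ligands, Egf made up 92.4% to 95.8% in noncystic males and 77.6% to 91.0% in Pkd1KO males, 2 ranges that did not overlap. Pkd1KO+ciliaKO males, at 78.0% to 94.0%, overlapped both. In females, where Areg had no TPM and added nothing to the sum, the ranges overlapped. They were 91.0% to 96.3% in noncystic, 85.7% to 93.6% in Pkd1KO and 88.6% to 94.9% in Pkd1KO+ciliaKO mice.

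**Figure D1:**
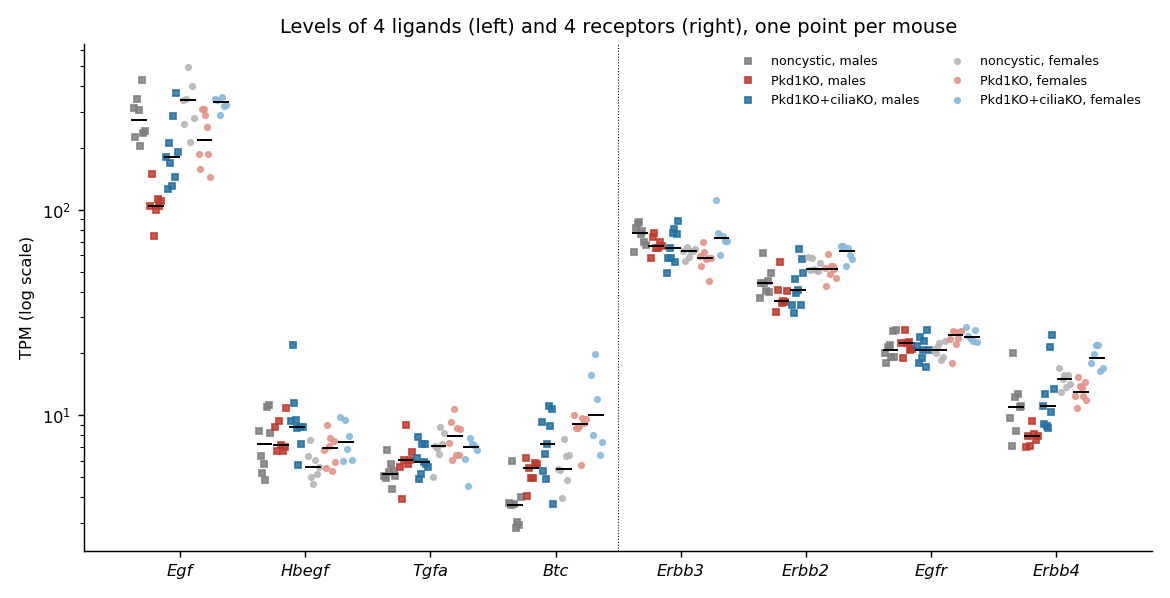
TPM on a log axis of the 8 members counted above the floor in every mouse, by group, with 1 point per mouse and a black line at each group median. Egf lies above the receptors in nearly all mice, and Erbb4 is the lowest of the 4 receptors in each group.

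Egf, Btc and Erbb4 made up nearly all the calls between genotypes. In males, Pkd1KO against noncystic mice gave 3 calls among 10 members (Egf and Erbb4 lower, Btc higher), where 6.3% of all genes tested were called. Pkd1KO against Pkd1KO+ciliaKO males gave 1 (Erbb4 lower) against 3.77% of all genes, and Pkd1KO+ciliaKO against noncystic males gave 3 (Egf lower, Btc and Ereg higher) against 8.89%. Of these, Ereg was near the floor. It passed the male filter mainly through Pkd1KO+ciliaKO males, the group called higher. Its call is therefore not weighed against the 8.89%, which leaves Egf and Btc. In females, 1 of 9 members was called in Pkd1KO against noncystic mice (Btc higher, 3.34% of all genes) and 1 of 9 in Pkd1KO against Pkd1KO+ciliaKO mice (Erbb4 lower, 11.7%). None was called in Pkd1KO+ciliaKO against noncystic females, where 2.54% of all genes were, with 2 members at an unadjusted p under 0.05 by edgeR and 2 called by DESeq2. The members' median log2 fold change lay between -0.18 and 0.14 in these 6 comparisons, and that of all genes tested between -0.01 and 0.01. A call means an adjusted p of at most 0.05 in the quasi-likelihood test of edgeR, adjusted by Benjamini and Hochberg over all genes of a comparison, and adjusted p are from this test where no other is named. The comparisons within a sex share mice: each group enters 2 of them.

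**Figure D2:**
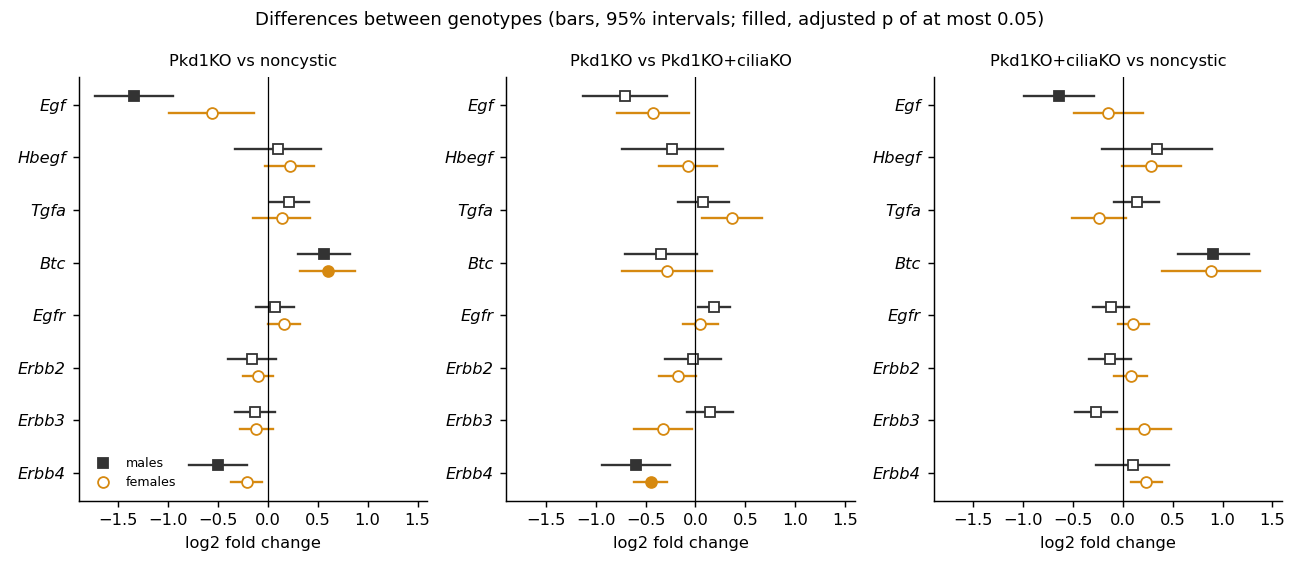
Log2 fold changes of 8 members (x axis) between genotypes in males (squares) and females (circles), with 95% confidence intervals; filled symbols have an adjusted p of at most 0.05. The filled symbols are Egf in males of both mutant genotypes and Btc in males of both and in Pkd1KO females against noncystic mice, and Erbb4 in Pkd1KO mice of both sexes against Pkd1KO+ciliaKO mice and in Pkd1KO males against noncystic males; Areg and Ereg, near the floor, are not drawn.

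Egf encodes the precursor of epidermal growth factor (ENSMUSG00000028017, chromosome 3 from 129677565 to 129755316 on the minus strand, GRCm38). Noncystic males had 809 to 1662 CPM (median 1025). Pkd1KO males had 279 to 698 CPM (median 423), so that every Pkd1KO male lay below every noncystic male. Pkd1KO+ciliaKO males stood between them, at 465 to 1066 CPM (median 674), overlapping both groups. The log2 fold change of Pkd1KO against noncystic males was -1.35 ± 0.19 (SE, adjusted p = 0.000585), a 2.54-fold lower level. The group means were 429 ± 131 CPM (SD, n = 7) in Pkd1KO and 1087 ± 265 CPM (SD, n = 8) in noncystic males. It was called on leaving out any of the 15 mice, with values between -1.51 and -1.23. Pkd1KO+ciliaKO males were also lower than noncystic males, with a log2 fold change of -0.64 ± 0.17 (SE, adjusted p = 0.0227) and 7 of 9 mice below the lowest noncystic male. This call was lost without noncystic male replicate 6 (-0.53, adjusted p = 0.0564). The difference between Pkd1KO and Pkd1KO+ciliaKO males, -0.71 ± 0.20 (SE, adjusted p = 0.0566), did not pass in the pairwise fit but did with DESeq2, -0.70 (adjusted p = 0.0109), with limma voom and with the 3 genotypes in one fit. Without the 4 male libraries that stood apart it was -0.47 (adjusted p = 0.186). In this bulk material, fewer cells of a type and less RNA per cell cannot be told apart.

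In females the ranges of Egf overlapped between all 3 genotypes. Noncystic females had 729 to 1722 CPM (median 1117), Pkd1KO females 509 to 1062 CPM (median 773) and Pkd1KO+ciliaKO females 837 to 1173 CPM (median 1057). Of the 8 Pkd1KO females, 4 lay between 509 and 611 CPM, below every noncystic and Pkd1KO+ciliaKO female, and 4 between 934 and 1062 CPM, within the range of both. The log2 fold change of Pkd1KO against noncystic females was -0.57 ± 0.20 (SE, adjusted p = 0.143) with a 95% interval of -0.99 to -0.14, and that against Pkd1KO+ciliaKO females was -0.43 ± 0.17 (SE, adjusted p = 0.117). Neither passed the threshold. The lowest noncystic female, at 729 CPM, was the library labelled replicate 5, whose Kif3a went against the label, and the next was at 919 CPM. Each of these pairs held 1 of the 2 such libraries. Without it the values were -0.65 (adjusted p = 0.0796) against noncystic and -0.43 (adjusted p = 0.157) against Pkd1KO+ciliaKO females. The test of the difference between the sexes gave -0.77 ± 0.28 (SE, adjusted p = 0.378) for Pkd1KO against noncystic mice, with an unadjusted p of 0.0075. Exons of Egf share 1107 bases, 9.82% of their length, with the antisense genes Gm42697 and 6330410L21Rik. Whether the counting used strand is not given in the sources used here, so reads from this stretch could belong to either.

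The 250 bases before the start of the 3 members that were called in Pkd1KO mice are shown, as RefSeq's GRCm38.p6 table gives them. Windows were taken for 7 of the 10 members. These stretches lie next to the genes whose levels moved in opposite directions. Egf had a second listed start, whose window (chr3:129725087-129725336, minus strand) is not shown. The strand is that of the gene, and capitals mark letters found by a search described below.
Egf, chr3:129755323-129755572, minus strand: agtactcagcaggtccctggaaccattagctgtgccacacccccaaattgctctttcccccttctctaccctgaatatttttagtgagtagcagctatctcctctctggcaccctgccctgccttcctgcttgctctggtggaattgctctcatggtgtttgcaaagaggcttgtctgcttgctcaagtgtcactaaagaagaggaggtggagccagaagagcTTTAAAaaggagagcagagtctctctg
Erbb4, chr1:69108060-69108309, minus strand: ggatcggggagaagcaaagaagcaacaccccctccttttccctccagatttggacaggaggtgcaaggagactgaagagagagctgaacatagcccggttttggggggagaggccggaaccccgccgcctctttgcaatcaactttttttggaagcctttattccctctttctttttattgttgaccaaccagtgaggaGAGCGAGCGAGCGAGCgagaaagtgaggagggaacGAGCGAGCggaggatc
Btc, chr5:91402995-91403244, minus strand: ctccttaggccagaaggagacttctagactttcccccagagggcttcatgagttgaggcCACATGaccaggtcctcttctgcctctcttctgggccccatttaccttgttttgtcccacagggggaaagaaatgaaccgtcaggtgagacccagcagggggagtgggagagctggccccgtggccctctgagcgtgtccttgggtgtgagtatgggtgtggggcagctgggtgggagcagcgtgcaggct
The search took both strands of these windows and of the same window of 27025 gene starts. In Egf, the capitals mark TTTAAA, a variant of the TATA box, 27 to 22 bases before the start (12.1% of all windows held it). In Erbb4 they mark 3 copies of GAGCGAGC that do not overlap each other (1.63% of all windows) within 51 bases of the start, and in Btc an E-box variant, CACATG, 191 to 186 bases before it (12.2%). These 3 strings were picked after the sequences had been read, and no match overlapped another motif searched. None of the 3 windows held TGANTCA (AP-1, 6.87% of all windows), TGGGTGGTC (GLI, 0.211%), TGGGGGGT (GLIS, 1.32%), GTTAAT (HNF1, 6.52%), AGGTCA (nuclear receptors, 13.8%), AGAACA (steroid receptors, 16.2%), CCAAT (34.5%), TATAAA (13%) or GGGCGG (GC box, 32.9%). This says only that those letters are not in these windows. The G and C content was 50.4% for Egf, 54.0% for Erbb4 and 59.6% for Btc, beside a median of 52.0% over all windows.

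Btc, betacellulin, a ligand of Egfr and Erbb4 (ENSMUSG00000082361, chromosome 5 from 91357261 to 91402994, minus strand), was higher in Pkd1KO mice of both sexes. Noncystic males had 4.48 to 7.72 CPM (median 5.64), Pkd1KO males 6.87 to 10.2 CPM (median 8.33) and Pkd1KO+ciliaKO males 5.27 to 14 CPM (median 10.8). Noncystic females had 5.75 to 10.7 CPM (median 7.62), Pkd1KO females 7.81 to 14.3 CPM (median 12.0) and Pkd1KO+ciliaKO females 8.22 to 22.9 CPM (median 12.4). The groups overlapped in each pair: 5 of 7 Pkd1KO males and 7 of 8 Pkd1KO females lay above every noncystic mouse of their sex. Against noncystic mice the log2 fold change in Pkd1KO mice was 0.56 ± 0.12 (SE, adjusted p = 0.0108) in males, a 1.48-fold higher level, and 0.60 ± 0.13 (SE, adjusted p = 0.0155) in females, 1.52-fold. Both were called on leaving out any mouse (0.50 to 0.65 in 15 fits of males and 0.54 to 0.68 in 15 fits of females). The female call was lost with the 3 genotypes in one fit, 0.59 (adjusted p = 0.0987), and with the replicate block, 0.58 (adjusted p = 0.083), and held in 5 of 7 alternatives.

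Btc was also higher in Pkd1KO+ciliaKO than in noncystic males. The log2 fold change was 0.91 ± 0.17 (SE, adjusted p = 0.00255), 1.88-fold higher, with 8 of 9 above every noncystic male. In females the value was 0.88 ± 0.23 (SE, adjusted p = 0.0567), which did not pass. It was called by DESeq2, 0.89 (adjusted p = 0.00442), with the 3 genotypes in one fit, and without the 2 female libraries whose Kif3a went against the label, 1.00 (adjusted p = 0.0348). Pkd1KO+ciliaKO females fell into 3 mice at 8.22 to 10.2 CPM and 3 at 14.7 to 22.9 CPM, and the library labelled Pkd1KO+ciliaKO replicate 6 had 9.55 CPM. Pkd1KO and Pkd1KO+ciliaKO mice differed by -0.34 ± 0.17 (SE, adjusted p = 0.281) in males and -0.29 ± 0.21 (SE, adjusted p = 0.412) in females, without passing.

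**Figure D3:**
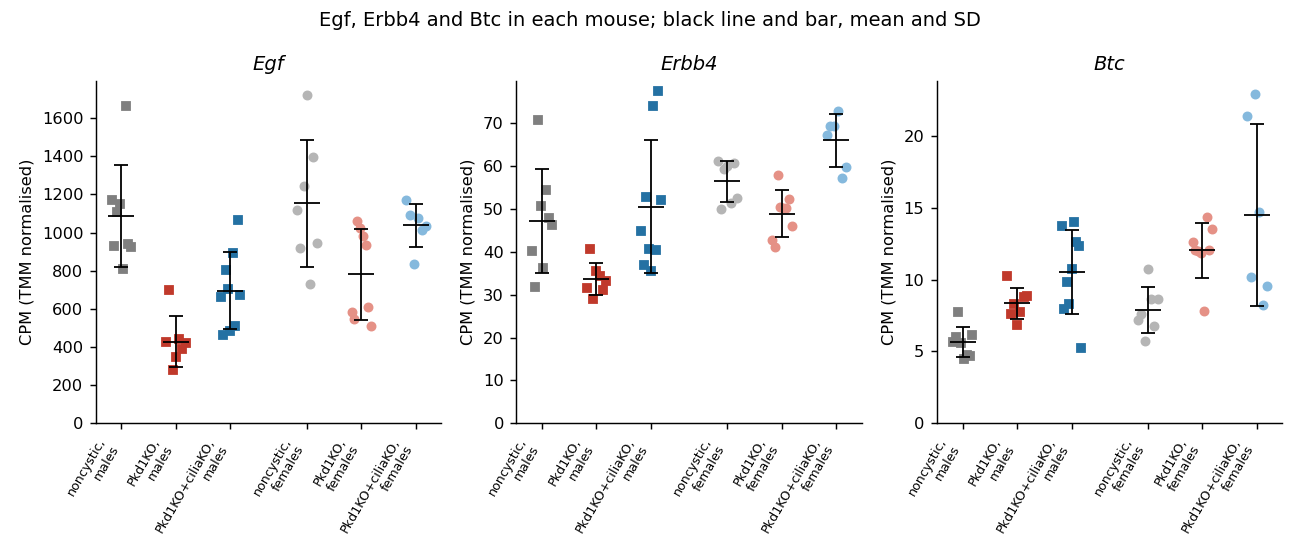
TMM-normalised CPM of Egf, Erbb4 and Btc in each mouse, by genotype and sex, with the group mean and SD in black. The 7 Pkd1KO males lie below all 8 noncystic males for Egf, and most Pkd1KO mice lie above the noncystic mice for Btc.

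Hbegf, heparin-binding EGF-like growth factor, and Tgfa, transforming growth factor alpha, are both ligands of Egfr, and neither was called between genotypes. Hbegf (chromosome 18 from 36504927 to 36515805, minus strand) had 7.23 to 19.0 CPM (median 12.3) in noncystic males, 10.6 to 17.7 CPM (median 13.4) in Pkd1KO males and 7.72 to 34.9 CPM (median 13.8) in Pkd1KO+ciliaKO males. All 3 ranges overlapped, and the highest value came from 1 mouse, Pkd1KO+ciliaKO male replicate 2. Its log2 fold change in Pkd1KO against noncystic mice was 0.10 ± 0.20 (SE, adjusted p = 0.813) in males and 0.22 ± 0.11 (SE, adjusted p = 0.374) in females, with 95% intervals of -0.33 to 0.53 and -0.03 to 0.46. Tgfa (chromosome 6 from 86195223 to 86275719, plus strand) had 9.87 to 13.2 CPM (median 11.6) in noncystic males and 10.6 to 17.8 CPM (median 13.1) in Pkd1KO males, a difference of 0.21 ± 0.09 (SE, adjusted p = 0.184). In females Tgfa had 9.51 to 17.2 CPM (median 14.4) in noncystic and 12.0 to 20.5 CPM (median 15.3) in Pkd1KO mice, a difference of 0.14 ± 0.14 (SE, adjusted p = 0.714). Between Pkd1KO and Pkd1KO+ciliaKO mice Tgfa differed by 0.08 ± 0.12 (SE, adjusted p = 0.753) in males and 0.37 ± 0.14 (SE, adjusted p = 0.103) in females. Neither ligand had a group of 1 genotype that lay apart from the other genotypes of its sex. Hbegf in females stood at 6.94 to 11.4 CPM (median 8.11), 8.25 to 13.2 CPM (median 9.58) and 8.17 to 14.2 CPM (median 9.90) in noncystic, Pkd1KO and Pkd1KO+ciliaKO mice.

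Areg (amphiregulin) and Ereg (epiregulin) lie with Btc on chromosome 5, the 3 genes spanning 328.373 kb from 91074622 to 91402994, but were near or under the floor in most mice. Areg had 0 to 40 counts in noncystic males, 2 to 16 counts in Pkd1KO males and 0 to 8 counts in Pkd1KO+ciliaKO males, and was at 3 counts or fewer in 25 of 45 mice. The highest value, 40 counts, came from noncystic male replicate 3, 1 of the 4 libraries that stood apart. Areg was not called in any comparison of males (adjusted p of 0.981, 0.402 and 0.486). Ereg had 0 to 6 counts in noncystic males, 0 to 5 counts in Pkd1KO males and 0 to 14 counts in Pkd1KO+ciliaKO males. More than 3 counts were seen in 1 of 8 noncystic, 2 of 7 Pkd1KO and 8 of 9 Pkd1KO+ciliaKO males. Ereg passed the male filter with at least 6 counts in 8 of 24 males, none of them Pkd1KO and 1 of them noncystic. It was thus tested mainly through Pkd1KO+ciliaKO males, the group called higher. Pkd1KO+ciliaKO against noncystic males was called (adjusted p = 0.0257), though no fold is given at so few counts. The call was lost without noncystic male replicate 2 (adjusted p = 0.0526) or 6 (adjusted p = 0.0523). In females Ereg had 1 to 8 counts in noncystic, 2 to 10 counts in Pkd1KO and 3 to 14 counts in Pkd1KO+ciliaKO mice, with no call between genotypes.

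Among the receptors, Erbb4 was the 1 called between genotypes by edgeR. Erbb4, a receptor of neuregulins, Btc and Hbegf (ENSMUSG00000062209, chromosome 1 from 68032186 to 69108059, minus strand), was lower in Pkd1KO than in Pkd1KO+ciliaKO mice of both sexes. Noncystic females had 49.9 to 61.1 CPM (median 59.3), Pkd1KO females 41.1 to 57.9 CPM (median 50.2) and Pkd1KO+ciliaKO females 57.1 to 72.9 CPM (median 68.2). Of the 8 Pkd1KO females 7 lay below every Pkd1KO+ciliaKO female. The log2 fold change of Pkd1KO against Pkd1KO+ciliaKO females was -0.45 ± 0.08 (SE, adjusted p = 0.00246), 1.37-fold lower, and it was called in all 14 fits that left out 1 mouse (-0.49 to -0.42). Pkd1KO against noncystic females gave -0.21 ± 0.07 (SE, adjusted p = 0.141) and Pkd1KO+ciliaKO against noncystic females 0.23 ± 0.07 (SE, adjusted p = 0.089), neither of which passed. DESeq2 called the latter, 0.24 (adjusted p = 0.0393).

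In males, Erbb4 stood at 31.8 to 70.8 CPM (median 47.0) in noncystic mice, 29.0 to 40.5 CPM (median 33.2) in Pkd1KO mice and 35.5 to 77.4 CPM (median 44.8) in Pkd1KO+ciliaKO mice. The Pkd1KO males had the narrowest range of the 3 male groups and overlapped the low end of both others. Pkd1KO against noncystic males gave -0.50 ± 0.14 (SE, adjusted p = 0.0416), and Pkd1KO against Pkd1KO+ciliaKO males gave -0.60 ± 0.16 (SE, adjusted p = 0.0469). Both calls lay close to the threshold. The first held in 4 of 15 fits that left out 1 mouse (without noncystic replicate 1, 2 or 5 or Pkd1KO replicate 2) and the second in 4 of 16 (without Pkd1KO replicate 2 or Pkd1KO+ciliaKO replicate 2, 4 or 5), with adjusted p of 0.0165 to 0.0852 and 0.0323 to 0.0899. The highest 2 Pkd1KO+ciliaKO males (73.9 and 77.4 CPM) and the highest noncystic male (70.8 CPM) were 3 of the 4 libraries that stood apart. Without those 4 libraries the differences were -0.39 (adjusted p = 0.0711) and -0.38 (adjusted p = 0.0543). The difference between the sexes in the Pkd1KO against Pkd1KO+ciliaKO comparison was -0.15 ± 0.20 (SE, adjusted p = 0.885), with a 95% interval of -0.55 to 0.25.

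Egfr, Erbb2 and Erbb3, which carry most of the receptor TPM, were not called in any genotype comparison by edgeR. Egfr, the receptor of Egf and Tgfa (chromosome 11 from 16752203 to 16918158, plus strand), had a narrow range, 17.1 to 26.7 TPM over all 45 mice. In males it stood at 69.2 to 101 CPM (median 76.5) in noncystic, 77.9 to 98.0 CPM (median 88.7) in Pkd1KO and 61.0 to 91.4 CPM (median 75.1) in Pkd1KO+ciliaKO mice, and the groups overlapped. Its Pkd1KO against noncystic difference was 0.07 ± 0.09 (SE, adjusted p = 0.693) in males and 0.16 ± 0.07 (SE, adjusted p = 0.301) in females, with 95% intervals of -0.12 to 0.26 and 0.00 to 0.32. Erbb2 (chromosome 11 from 98412470 to 98437716, plus strand) had 65.0 to 91.1 CPM (median 78.9) in noncystic and 56.1 to 96.2 CPM (median 64.6) in Pkd1KO males. It differed by -0.16 ± 0.11 (SE, adjusted p = 0.444) in males and -0.10 ± 0.07 (SE, adjusted p = 0.558) in females between the same genotypes. Erbb3 (chromosome 10 from 128567523 to 128589652, minus strand) differed by -0.13 ± 0.10 (SE, adjusted p = 0.463) and -0.12 ± 0.08 (SE, adjusted p = 0.517). Between Pkd1KO and Pkd1KO+ciliaKO mice it differed by 0.14 ± 0.11 (SE, adjusted p = 0.492) in males and -0.33 ± 0.14 (SE, adjusted p = 0.127) in females. Pkd1KO+ciliaKO against noncystic males gave -0.27 ± 0.10 (SE, adjusted p = 0.0967) for Erbb3, with a range of 96.6 to 166 CPM (median 130.1) against 126 to 178 CPM (median 154), and it was called in 2 of 7 alternatives, limma voom with -0.31 (adjusted p = 0.0397) and the replicate block with -0.33 (adjusted p = 0.0327). The summed TPM of the 4 receptors had medians of 152 in noncystic, 134 in Pkd1KO and 147 in Pkd1KO+ciliaKO males, and of 148, 147 and 179 in females. Of that sum, Erbb4 made up 4.26% to 7.10% in Pkd1KO males and 8.31% to 10.7% in Pkd1KO females. The sexes overlapped in the other genotypes, at 4.71% to 10.6% in males and 9.07% to 10.6% in females of noncystic mice, and at 5.94% to 13.3% and 8.10% to 13.8% of Pkd1KO+ciliaKO mice.

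Males and females of the same genotype differed in 3 or 4 members, among many genes that differed. In noncystic mice 3 of 9 members were called (27.4% of all genes), in Pkd1KO mice 4 of 9 (30.6%) and in Pkd1KO+ciliaKO mice 4 of 9 (19.4%), from 1 fit of all 45 mice. Erbb3 was higher in males than in females, by a log2 fold change of 0.43 ± 0.11 (SE, adjusted p = 0.00385) in noncystic and 0.42 ± 0.11 (SE, adjusted p = 0.00419) in Pkd1KO mice. Noncystic males had 126 to 178 CPM (median 154) of Erbb3 and noncystic females 105 to 127 CPM (median 114), with 7 of 8 males above every female. In Pkd1KO+ciliaKO mice Erbb3 differed by -0.05 ± 0.12 (SE, adjusted p = 0.81). Btc was lower in males, with -0.50 ± 0.19 (SE, adjusted p = 0.0403) in noncystic and -0.53 ± 0.19 (SE, adjusted p = 0.0266) in Pkd1KO mice, and the value in Pkd1KO+ciliaKO mice was -0.48 ± 0.19 (SE, adjusted p = 0.0662). The Btc call in noncystic mice held in 35 of 45 fits that left out 1 mouse, and that in Pkd1KO mice in 44 of 45 (not without Pkd1KO male replicate 4).

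Egf and Erbb4 were lower in males of both mutant genotypes. Egf differed between males and females by -0.10 ± 0.19 (SE, adjusted p = 0.757) in noncystic, -0.87 ± 0.20 (SE, adjusted p = 0.00074) in Pkd1KO and -0.59 ± 0.20 (SE, adjusted p = 0.029) in Pkd1KO+ciliaKO mice. Of the 7 Pkd1KO males 6 lay below the lowest Pkd1KO female, the exception being replicate 2 at 698 CPM, the library with the lowest summed TPM of protein-coding genes (727843, against 853188 to 946924 in the others). The part of this low sum in the result was not tested by itself. The Egf call in Pkd1KO mice held in each of 45 fits that left out 1 mouse, this library among them (-1.03 to -0.79). Erbb4 differed by -0.26 ± 0.14 (SE, adjusted p = 0.156), -0.55 ± 0.14 (SE, adjusted p = 0.00253) and -0.40 ± 0.14 (SE, adjusted p = 0.0389) in the same order. Each Pkd1KO male, at up to 40.5 CPM, lay below each Pkd1KO female, at 41.1 CPM or more. Without the 4 males that stood apart, the Erbb4 difference was -0.37 (adjusted p = 0.00331) in noncystic and -0.63 (adjusted p = 8.11e-06) in Pkd1KO+ciliaKO mice.

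In Pkd1KO+ciliaKO mice Hbegf was higher in males, by 0.59 ± 0.22 (SE, adjusted p = 0.0497), and Erbb2 was lower, by -0.34 ± 0.11 (SE, adjusted p = 0.0234). In noncystic mice Ereg, near the floor, was lower in males, at 0 to 6 counts against 1 to 8 counts in females (adjusted p = 0.0204). More than 3 counts were seen in 1 of 8 noncystic males and 4 of 7 noncystic females. This call, among the 3 in noncystic mice, thus rests on few counts. The Hbegf difference was 0.54 ± 0.21 (SE, adjusted p = 0.0511) in noncystic and 0.44 ± 0.21 (SE, adjusted p = 0.112) in Pkd1KO mice, and it was called in 6 of 7 alternatives in noncystic and 5 of 7 in Pkd1KO+ciliaKO mice. Without the 2 female libraries whose Kif3a went against the label, Hbegf in Pkd1KO+ciliaKO mice was 0.54 (adjusted p = 0.113). Without the 4 males that stood apart, it was 0.63 (adjusted p = 0.00726) in noncystic and 0.49 (adjusted p = 0.0375) in Pkd1KO mice, and Tgfa in noncystic mice, -0.29 ± 0.12 (SE, adjusted p = 0.0819) with all libraries, was -0.30 (adjusted p = 0.0484). Btc in Pkd1KO+ciliaKO mice was called without the 2 females, -0.57 (adjusted p = 0.0361), and without the 4 males, -0.59 (adjusted p = 0.0149). The Hbegf call in Pkd1KO+ciliaKO mice held in 11 of 45 fits that left out 1 mouse, and without Pkd1KO+ciliaKO male replicate 2, the highest of its group, the 9 members gave 0 calls in this comparison. The Ereg and Btc calls in noncystic mice were lost without the 2 female libraries whose Kif3a went against the label (adjusted p = 0.0511 and 0.0612), which left Erbb3. The tests of whether a genotype difference itself differed between the sexes called none of the 9 members in any of the 3 comparisons by edgeR or by DESeq2, with 0.0126%, 0.221% and 0.0316% of all genes called by edgeR. At an unadjusted p under 0.05 these tests gave 1 member for Pkd1KO against noncystic, 2 for Pkd1KO against Pkd1KO+ciliaKO and 3 for Pkd1KO+ciliaKO against noncystic mice.

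**Figure D4:**
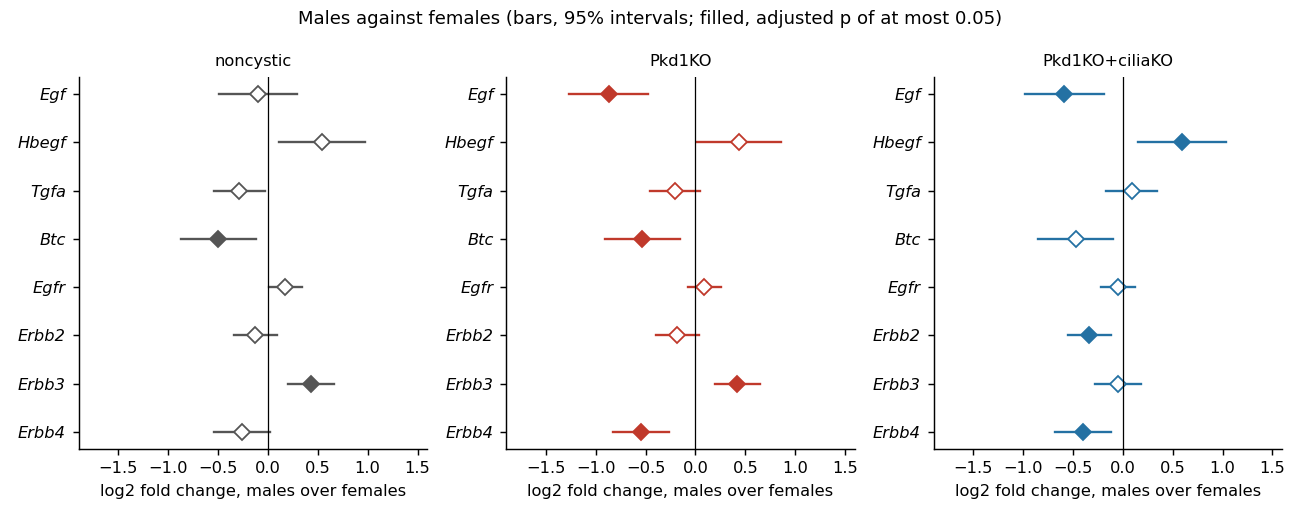
Log2 fold changes of 8 members in males over females within each genotype (x axis), with 95% confidence intervals; filled symbols have an adjusted p of at most 0.05. Egf and Erbb4 lie below 0 and filled in both mutant genotypes, and Erbb3 lies above 0 in noncystic and Pkd1KO mice.

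The genes of the pathway lists are read against the shares of all genes called, which in males were 6.3% in Pkd1KO against noncystic, 3.77% in Pkd1KO against Pkd1KO+ciliaKO and 8.89% in Pkd1KO+ciliaKO against noncystic mice, and in females 3.34%, 11.7% and 2.54% in the same order. For lists this short, a count of 0 or 1 is near those shares and is no result about the list. Among the other ErbB ligands, Nrg1, neuregulin 1, a ligand of Erbb3 and Erbb4, was the 1 of 4 measured genes called in Pkd1KO against noncystic males. Nrg1 had 14.2 to 30.7 CPM (median 21.4) in noncystic males, 21.0 to 46.8 CPM (median 34.3) in Pkd1KO males and 16.9 to 29.0 CPM (median 22.9) in Pkd1KO+ciliaKO males. It was higher in Pkd1KO males than in noncystic males, by 0.67 ± 0.18 (SE, adjusted p = 0.0364), and than in Pkd1KO+ciliaKO males, by 0.63 ± 0.15 (SE, adjusted p = 0.0281), with groups that overlapped. In females the same differences were 0.36 ± 0.11 (SE, adjusted p = 0.0759) and 0.36 ± 0.12 (SE, adjusted p = 0.0608) and did not pass. Nrg4 was lower in Pkd1KO+ciliaKO than in noncystic males, with a log2 fold change of -0.51 ± 0.15 (SE, adjusted p = 0.0397). None of the 3 genes of the list measured in females was called there.

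Of 9 ErbB response genes, Ccnd1, the cell cycle regulator cyclin D1, was called in males. Its level was 115 to 179 CPM (median 162) in noncystic, 204 to 319 CPM (median 243) in Pkd1KO and 193 to 279 CPM (median 232) in Pkd1KO+ciliaKO males, so that each male of both mutant genotypes lay above each noncystic male. The log2 fold changes against noncystic males were 0.66 ± 0.11 (SE, adjusted p = 0.00151) and 0.57 ± 0.09 (SE, adjusted p = 0.00113). The 8 other genes of the list, among them Egr1, Fos and Myc, were not called between genotypes in either sex. The list's median in Pkd1KO against noncystic mice was 0.49 in males and 0.15 in females, beside -0.01 and 0.00 over all genes. In Pkd1KO+ciliaKO against noncystic mice it was 0.44 in males and 0.12 in females. Between Pkd1KO and Pkd1KO+ciliaKO mice it was -0.04 in males and 0.01 in females. Of 14 feedback inhibitors, Errfi1, which binds and inhibits ErbB kinases, stood at 282 to 685 CPM (median 464) in noncystic and 164 to 407 CPM (median 222) in Pkd1KO females, a lower level with overlapping groups. The log2 fold change was -0.89 ± 0.21 (SE, adjusted p = 0.0237). The male value was -0.48 ± 0.28 (SE, adjusted p = 0.343). Spry1 and Lrig2 were the 2 called in Pkd1KO against Pkd1KO+ciliaKO females, both lower, Socs5 was the 1 called, lower, in the same comparison of males, and Spry1 was higher in Pkd1KO+ciliaKO than in noncystic males.

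Pik3cb, a catalytic subunit of PI3 kinase, was the 1 of 8 genes of the PI3 kinase arm called in Pkd1KO females, higher than in noncystic mice by 0.19 ± 0.05 (SE, adjusted p = 0.043) and than in Pkd1KO+ciliaKO mice by 0.21 ± 0.05 (SE, adjusted p = 0.0233). In males Pik3r1 was higher in Pkd1KO+ciliaKO than in noncystic mice. In the Ras and MAP kinase cascade no gene of 10 was called against noncystic mice in any comparison, and 3 were called in Pkd1KO against Pkd1KO+ciliaKO females (Map2k2 and Hras higher, Map2k1 lower). Of 15 adaptors and receptor ubiquitin ligases, Gab2 was the 1 called, lower in Pkd1KO than in Pkd1KO+ciliaKO females. Of 9 genes of ligand shedding, Rhbdl2 (higher) and Adam15 (lower) were called in Pkd1KO+ciliaKO against noncystic males. None of 8 genes of distal magnesium transport was called between genotypes. Their median in Pkd1KO against noncystic mice was -0.11 in males and -0.08 in females.

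Markers of the segments that make Egf were read beside it. In Pkd1KO against noncystic males, 1 of 6 thick ascending limb markers was called, lower: Slc12a1, the sodium-potassium-chloride cotransporter of this segment, with -0.72 ± 0.18 (SE, adjusted p = 0.022). The median of the 6 was -0.33, and Umod, uromodulin, gave -0.43 ± 0.16 (SE, adjusted p = 0.136). The summed markers ranged over 2521 to 4756 CPM in noncystic, 2156 to 3627 CPM in Pkd1KO and 2564 to 4481 CPM in Pkd1KO+ciliaKO males. Of 5 distal convoluted tubule markers, Klhl3 was called, lower, with -0.40 ± 0.11 (SE, adjusted p = 0.0339), a list median of -0.40 and sums of 1102 to 2344 CPM in noncystic and 671 to 1466 CPM in Pkd1KO males. All 11 markers had a smaller log2 fall than Egf (-1.35) there, from -0.72 to -0.09. In Pkd1KO against noncystic females, Cldn16 was called, lower, with -0.53 ± 0.14 (SE, adjusted p = 0.0466), close to Egf, which was not called (-0.57 ± 0.20, SE). The medians there were -0.13 for the thick ascending limb and -0.10 for the distal convoluted tubule. Against Pkd1KO+ciliaKO mice, Pkd1KO mice had 2 of 6 thick ascending limb markers called, lower, in each sex, as was Pvalb, a marker of the distal convoluted tubule, with -2.37 ± 0.51 (SE, adjusted p = 0.0139) in males and -1.68 ± 0.47 (SE, adjusted p = 0.0321) in females. Egf fell less than Pvalb in that comparison, by -0.71 in males and -0.43 in females. In Pkd1KO+ciliaKO against noncystic mice Pvalb was higher in males and Ptger3 higher in females. The part of these segments in the Egf and Erbb4 results was not tested.

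**Figure D5:**
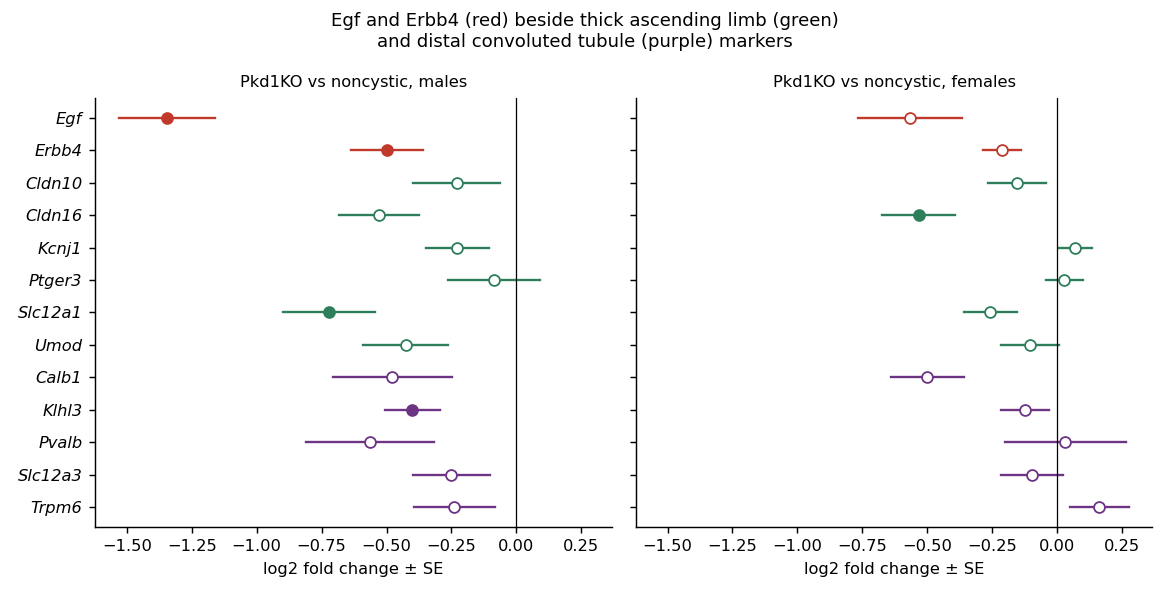
Log2 fold change ± SE in Pkd1KO against noncystic males (left) and females (right) of Egf and Erbb4, 6 thick ascending limb markers and 5 distal convoluted tubule markers; filled symbols have an adjusted p of at most 0.05. In males Egf lies further below 0 than each of the 11 markers, and in females Cldn16 lies close to Egf.

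Markers of other cell types moved in some of the same comparisons. In Pkd1KO against noncystic males, 2 of 6 tubule injury markers, 2 of 7 macrophage markers, 2 of 5 podocyte markers and 1 of 3 mast cell markers were called, all higher, and none of 6 proximal tubule, 6 principal cell, 5 intercalated cell, 5 endothelial or 5 fibroblast and pericyte markers. Macrophage markers summed to 71.7 to 102 CPM in noncystic and 96.0 to 397 CPM in Pkd1KO males, where Pkd1KO male replicate 4 had 397 CPM and the others 96.0 to 136 CPM. Among the markers measured, which were 4 of 7 for mast cells, none was at 0 in all mice of a group. Injury markers summed to 378 to 752 CPM in noncystic and 525 to 1674 CPM in Pkd1KO males, and to 1063 to 1537 CPM and 1015 to 1571 CPM in females, where none of the 6 was called. In Pkd1KO+ciliaKO against noncystic males, 3 of 6 proximal tubule markers were called, lower, and 2 of 6 injury, 2 of 5 podocyte, 2 of 3 mast cell and 1 of 6 principal cell markers, higher, while 1 of 7 macrophage markers was higher and 1 lower. In Pkd1KO against Pkd1KO+ciliaKO males, 2 of 5 intercalated cell markers were called, lower, with 1 proximal tubule and 1 macrophage marker higher. In the same comparison of females, 1 marker each of proximal tubule, macrophages, mast cells and tubule injury was higher and 1 of intercalated cells lower, and 1 of 4 mast cell markers was higher in Pkd1KO than in noncystic females. Without Pkd1KO male replicate 4 and the 3 other males that stood apart, Egf in Pkd1KO against noncystic males was -1.29 (adjusted p = 0.00134) and Btc 0.69 (adjusted p = 0.00112).

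The genes whose levels followed Egf most closely were ranked by Spearman's rho of log2(CPM + 0.5) over the 45 mice, as a description, since the mice share genotype, sex and segment content. They were Malrd1 with a rho of 0.90 (0.89 in 24 males and 0.84 in 21 females), Cwh43 with 0.86 (0.90 in 24 males and 0.76 in 21 females), Fer1l6 with 0.85 (0.91 in 24 males and 0.63 in 21 females), Rap1gap with 0.83 (0.85 in 24 males and 0.66 in 21 females) and Sowaha with 0.83 (0.86 in 24 males and 0.77 in 21 females). Among the members, Erbb4 followed Egf most closely, with 0.74 (0.72 in 24 males and 0.73 in 21 females), and Tgfa had the most negative value, -0.40 (-0.70 in 24 males and -0.43 in 21 females). The 5 genes most like Erbb3, the receptor with the highest TPM, were Tacc2, Abtb1, Med24, Anapc7 and Akap1, with rho of 0.79 to 0.84. Within each sex these 5 ranged from 0.58 to 0.79. Erbb2 had 0.26 (0.65 in 24 males and 0.85 in 21 females) with Erbb3.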

How the data were processed

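TRAP RNASeq libraries of 45 mice were used, 1 per mouse, in 6 groups of sex and genotype taken from the labels. Per the submitters' processing notes, the authors used fastp 0.20.0 for trimming, STAR 2.7.9 for alignment (GRCm38.p6) and featureCounts 2.0.0 for counting, without pooling mice. They deposited counts per gene for each sex, and TPM for genes that the study took as protein-coding, all of which had at least 6 counts in 20% of the mice of a sex. Tests were limited to the genes of these TPM tables. The strand setting of the counting is not given in the sources used here. TPM, which divides by transcript length and depth, served to compare levels between genes. It also gave the shares and sums of ligand and receptor TPM by group and the principal components, but no test used it.

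Counts were scaled with TMM and tested with edgeR 4.0.16 (quasi-likelihood, R 4.3.3), each pair of genotypes within a sex in its own fit, and the sexes in 1 fit of all 45 mice, with the same filter. p-values were adjusted by Benjamini and Hochberg over all genes of a comparison, and an adjusted p of at most 0.05 was called. Depth was 80874556 to 132958186 counts per mouse. CPM are TMM-normalised, and 3 counts are the floor, for counting error only. No 2 replicates of a group agreed within counting noise. Alternatives were DESeq2 1.42.0, its size factors, no filter, a replicate block, limma 3.58.1 voom with sample quality weights, a joint fit of 3 genotypes, and fits without doubtful libraries or each mouse in turn. The fitting steps were tested on simulated data for Pkd1KO against noncystic mice, drawn with edgeR's own estimates of spread. There a larger share of the calls of DESeq2 than of edgeR or limma voom fell on unchanged genes. Since that setting may favour edgeR, it cannot rank the tools on the real data. The study's own tests used DESeq2, and calls of 1 tool alone are given with the tool named. The members and gene lists were chosen with earlier results of these data known. All 10 members were tested in each comparison where they passed the filter, and differences that were not called are not all given. Of each pathway list, up to 3 genes called in Pkd1KO against noncystic mice were named. Single markers and pathway genes called in other comparisons were named after their values were seen. For Egf and Erbb3, the 5 protein-coding genes with the highest Spearman coefficient were named. Promoter windows came from RefSeq.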

Additional observations from a re-analysis of the deposited data

Results flagged for a closer look

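Of 60 pairs of a member and a group, 11 had 1 mouse whose gap to the nearest of the others was large for the group's range (Dixon's test at the 95% level). For normally distributed values, chance passes it in about 1 group in 20. The CPM were not log-transformed, so this rate need not hold here, least of all near the floor. For Egf, noncystic male replicate 6 was the highest of its group at 1662 CPM, and Pkd1KO male replicate 2 the highest of its group at 698 CPM. Without the first, the Pkd1KO+ciliaKO against noncystic difference of males was no longer called. For Hbegf, Pkd1KO+ciliaKO male replicate 2 was the highest at 34.9 CPM. Tgfa was lowest in Pkd1KO+ciliaKO female replicate 2, at 8.32 CPM, Btc was lowest in Pkd1KO female replicate 5, at 7.81 CPM, and Erbb3 was highest in Pkd1KO+ciliaKO female replicate 1, at 202 CPM. The other 5 were Areg and Ereg near the floor of 3 counts. Areg was highest at 0.373 CPM in noncystic male replicate 3, 0.205 CPM in Pkd1KO male replicate 3 and 0.0957 CPM in Pkd1KO female replicate 3. Ereg was highest at 0.0602 CPM in noncystic male replicate 5 and 0.117 CPM in Pkd1KO+ciliaKO female replicate 3.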

How the results depend on the processing

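Over the members' log2 fold changes, 703 values under another setting kept direction and side of the threshold, 25 gained a call, 15 lost one and 34 changed direction, none of the last called in either fit. The number of members called moved by over 1.5 times in these cases. Pkd1KO against Pkd1KO+ciliaKO males gave 2 with DESeq2, limma voom or the 3 genotypes in one fit (Egf and Erbb4), and 0 with the replicate block or without the 4 males that stood apart. Pkd1KO against noncystic females gave 0 with the replicate block or the 3 genotypes in one fit. Pkd1KO against Pkd1KO+ciliaKO females gave 2 with limma voom (Egf and Erbb4). Pkd1KO+ciliaKO against noncystic females gave 2 with DESeq2, and 1 with limma voom (Erbb4), without the 2 females whose Kif3a went against the label (Btc) or with the 3 genotypes in one fit (Btc). Males against females gave, in noncystic mice, 6 with limma voom or without the 4 males (Hbegf, Tgfa and Erbb4 gained in both) and 1 without the 2 females, and in Pkd1KO+ciliaKO mice 2 with the replicate block. The cause was not tested. Replicate numbers did not pair the mice: of 41 pairs of same-numbered mice, 15 had deviations correlated above 0.1 (-0.37 to 0.48, median 0.0185). The replicate block ended the calls of Erbb4 in Pkd1KO against noncystic males (-0.46, adjusted p = 0.144) and against Pkd1KO+ciliaKO males (-0.44, adjusted p = 0.213), Btc in Pkd1KO against noncystic females (0.58, adjusted p = 0.083), Ereg in Pkd1KO+ciliaKO against noncystic males (adjusted p = 0.063), and Egf and Hbegf between the sexes in Pkd1KO+ciliaKO mice (adjusted p = 0.0551 and 0.0708). It gained Erbb3 in Pkd1KO+ciliaKO against noncystic males (-0.33, adjusted p = 0.0327) and Hbegf between the sexes in noncystic mice (0.59, adjusted p = 0.0391).

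With each mouse left out in turn, members called ranged over 2 to 3 in Pkd1KO against noncystic males, 0 to 2 in Pkd1KO against Pkd1KO+ciliaKO males, 1 to 4 in Pkd1KO+ciliaKO against noncystic males, 1 in each fit in Pkd1KO against noncystic females, 1 in each fit in Pkd1KO against Pkd1KO+ciliaKO females and 0 to 1 in Pkd1KO+ciliaKO against noncystic females. Males against females ranged over 2 to 5 in noncystic, 3 to 5 in Pkd1KO and 0 to 5 in Pkd1KO+ciliaKO mice. The 5 in noncystic mice came without noncystic male replicate 3. The 0 in Pkd1KO+ciliaKO mice came without Pkd1KO+ciliaKO male replicate 2 or 7. Between the sexes, calls were lost on leaving out 1 of these replicates: for Btc in noncystic mice noncystic male 1, 2, 4, 5, 6 or 7, noncystic female 2, 4, 5 or 7 (adjusted p = 0.0509 to 0.112), for Egf in Pkd1KO+ciliaKO mice Pkd1KO+ciliaKO male 2, 5 or 7, Pkd1KO+ciliaKO female 1, 2 or 4 (adjusted p = 0.051 to 0.0627), for Erbb4 in Pkd1KO+ciliaKO mice Pkd1KO+ciliaKO male 1, 2, 4, 5, 7 or 9, Pkd1KO+ciliaKO female 1, 2, 3 or 4 (adjusted p = 0.0504 to 0.0864), and for Erbb2 in Pkd1KO+ciliaKO mice Pkd1KO+ciliaKO male 2 or 7, Pkd1KO+ciliaKO female 1 or 2 (adjusted p = 0.0516 to 0.0735). Calls were gained without 1 of these: for Hbegf in noncystic mice noncystic male 3, 4 or 5, Pkd1KO male 4, Pkd1KO+ciliaKO male 2, 6, 8 or 9, noncystic female 2, Pkd1KO+ciliaKO female 1 (adjusted p = 0.0199 to 0.0495), for Btc in Pkd1KO+ciliaKO mice Pkd1KO+ciliaKO male 1, 6 or 8, Pkd1KO+ciliaKO female 2, 5 or 6 (adjusted p = 0.0207 to 0.0469), for Erbb2 in Pkd1KO mice Pkd1KO male 3 (adjusted p = 0.0485), for Erbb4 in noncystic mice noncystic male 3 (adjusted p = 0.0283), and for Tgfa in noncystic mice noncystic female 1 (adjusted p = 0.0257). Within a sex, calls were gained for Egf in Pkd1KO against Pkd1KO+ciliaKO males without Pkd1KO male 2, Pkd1KO+ciliaKO male 2 or 5 (adjusted p = 0.0147 to 0.0469), for Erbb3 in Pkd1KO+ciliaKO against noncystic males without Pkd1KO+ciliaKO male 9 (adjusted p = 0.0372) and for Btc in Pkd1KO+ciliaKO against noncystic females without Pkd1KO+ciliaKO female 5 or 6 (adjusted p = 0.0348 to 0.0409).

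The values that changed direction, given as log2 fold changes, were as follows. With DESeq2: Areg 1.45 (Pkd1KO against noncystic, males). With the replicate block: Areg 0.81 (Pkd1KO against noncystic, males), Erbb2 0.016 (Pkd1KO against Pkd1KO+ciliaKO, males), Btc 0.037 (sex difference of Pkd1KO against noncystic), Hbegf -0.0056 (sex difference of Pkd1KO+ciliaKO against noncystic). With limma voom: Areg 1.24 (Pkd1KO against noncystic, males), Tgfa -0.036 (Pkd1KO against Pkd1KO+ciliaKO, males), Erbb2 0.013 (Pkd1KO against Pkd1KO+ciliaKO, males), Areg 0.56 (Pkd1KO+ciliaKO against noncystic, males), Erbb4 -0.059 (Pkd1KO+ciliaKO against noncystic, males), Ereg -0.14 (Pkd1KO against noncystic, females), Hbegf 0.015 (Pkd1KO against Pkd1KO+ciliaKO, females), Ereg -0.049 (Pkd1KO against Pkd1KO+ciliaKO, females), Ereg -0.094 (Pkd1KO+ciliaKO against noncystic, females), Btc 0.083 (sex difference of Pkd1KO against noncystic), Egf 0.023 (sex difference of Pkd1KO against Pkd1KO+ciliaKO), Erbb4 0.090 (sex difference of Pkd1KO against Pkd1KO+ciliaKO), Egf 0.055 (males against females, noncystic), Erbb3 0.018 (males against females, Pkd1KO+ciliaKO). With the 4 males left out: Areg 1.49 (Pkd1KO against noncystic, males), Tgfa -0.071 (Pkd1KO against Pkd1KO+ciliaKO, males), Erbb2 0.11 (Pkd1KO against Pkd1KO+ciliaKO, males), Areg 0.79 (Pkd1KO+ciliaKO against noncystic, males), Erbb4 -0.030 (Pkd1KO+ciliaKO against noncystic, males), Btc 0.096 (sex difference of Pkd1KO against noncystic), Erbb2 0.035 (sex difference of Pkd1KO against noncystic), Erbb3 0.027 (sex difference of Pkd1KO against noncystic), Btc 0.11 (sex difference of Pkd1KO against Pkd1KO+ciliaKO), Erbb4 0.079 (sex difference of Pkd1KO against Pkd1KO+ciliaKO), Btc -0.012 (sex difference of Pkd1KO+ciliaKO against noncystic). With the 2 females left out: Ereg -0.027 (Pkd1KO against Pkd1KO+ciliaKO, females), Btc 0.038 (sex difference of Pkd1KO against Pkd1KO+ciliaKO), Hbegf -0.016 (sex difference of Pkd1KO+ciliaKO against noncystic), Btc -0.091 (sex difference of Pkd1KO+ciliaKO against noncystic). With 1 mouse left out, the following ranges crossed 0: Areg -0.59 to 1.51 (Pkd1KO against noncystic, males), Areg -1.25 to 0.55 (Pkd1KO+ciliaKO against noncystic, males), Btc -0.24 to 0.065 (sex difference of Pkd1KO against Pkd1KO+ciliaKO), Btc -0.13 to 0.047 (sex difference of Pkd1KO against noncystic), Btc -0.099 to 0.21 (sex difference of Pkd1KO+ciliaKO against noncystic), Egf -0.21 to 0.032 (males against females, noncystic), Egfr -0.086 to 0.00044 (males against females, Pkd1KO+ciliaKO), Erbb2 -0.11 to 0.042 (Pkd1KO against Pkd1KO+ciliaKO, males), Erbb2 -0.14 to 0.0016 (sex difference of Pkd1KO against noncystic), Erbb3 -0.13 to 0.11 (males against females, Pkd1KO+ciliaKO), Erbb3 -0.084 to 0.038 (sex difference of Pkd1KO against noncystic), Erbb4 -0.00031 to 0.20 (Pkd1KO+ciliaKO against noncystic, males), Ereg -0.13 to 0.48 (Pkd1KO against Pkd1KO+ciliaKO, females), Ereg -0.021 to 0.33 (Pkd1KO against noncystic, females), Ereg -0.32 to 0.29 (Pkd1KO+ciliaKO against noncystic, females), Hbegf -0.14 to 0.032 (Pkd1KO against Pkd1KO+ciliaKO, females), Hbegf -0.31 to 0.0056 (Pkd1KO against Pkd1KO+ciliaKO, males), Hbegf -0.26 to 0.080 (sex difference of Pkd1KO against Pkd1KO+ciliaKO), Hbegf -0.19 to 0.0065 (sex difference of Pkd1KO against noncystic), Hbegf -0.19 to 0.16 (sex difference of Pkd1KO+ciliaKO against noncystic). At 3 counts or fewer in many mice, depth limits Areg and Ereg.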
